A study of Mus musculus with 2 samples.

Results

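Synaptic genes were examined in RNA labelled as cerebral cortex of 1 Sox11-/- mouse embryo and of 1 Sox11+/+ littermate, both collected at E17.5, late in embryonic development, from a cross of Sox11+/- parents on a mixed C57BL/6 and 129 background. The set holds 33 listed genes of synaptic vesicles, the release machinery, the active zone, neurexins and neuroligins, postsynaptic scaffolds and CaMKII, among 18193 genes with a single-gene probe set on the arrays. Members were taken by gene symbol, with every probe set whose platform annotation names only that gene. This gave 86 probe sets for 32 of the 33 genes, and Shank2 had none in the table used here. The set was drawn up with earlier results of the same contrast known, so its values are a description and none is tested. Each genotype had 1 Affymetrix array, each array gave 1 signal intensity per probe set on a linear scale, and no p-value is given. The labels and notes used here state neither how the Sox11 allele was made nor the sex of the embryos.

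A chemical synapse joins a transmitter-filled presynaptic bouton to a receptor-bearing postsynaptic membrane. On the presynaptic side, synapsins tether vesicles, SNARE proteins drive their fusion, synaptotagmins sense calcium and active zone proteins hold vesicles at the release site. Neurexins span the cleft to neuroligins, behind which PSD-95, Shank and Homer proteins scaffold glutamate receptors and the kinase CaMKII. In the late embryonic mouse cortex, synapse formation is at an early stage and many of these genes are still increasing in expression. SOX11, a SoxC transcription factor, is known for roles in neuronal differentiation and survival.

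The quantity compared is the log2 difference, Sox11 null minus wild type, after the null array was centred on the median of all measured genes. A gene is represented by its brightest probe set unless stated otherwise, and it counts as measured when that probe set reached the array median (177 on either array) on at least 1 array. Of the 32 members with a probe set, 30 were measured. The glutamate transporter gene Slc17a7 (124 in the null and 118 in the wild-type library) and the scaffold gene Shank1 (97.0 and 73.1) stayed below the median in both libraries and are left out of the counts. Signals of different probe sets are not comparable with each other, so differences set each probe set against itself only. Sums over a marker list, given further on, mostly follow its brightest probe sets and include genes below the median.

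Promoter windows are shown for 3 members chosen by difference and letters. Of these, Syn1 and Nlgn1 were at least 1.5-fold higher in the null library and share a rare run of letters. Sv2a, next after Syn1 among presynaptic genes higher in the null library, holds letters of a Sox-type motif. Nrxn3 and Camk2a, also beyond 1.5-fold, are not shown. The sequences are the 250 bases before an annotated start site, 5′ to 3′, from RefSeq on GRCm38.p6. The Syn1 stretch is chrX:20920919-20921168 on the minus strand, directly upstream of the gene. Of the 2 Nlgn1 windows, the one shown, chr3:26153987-26154236 on the minus strand, lies before an internal start site within the gene. The Sv2a stretch is chr3:96180977-96181226 on the plus strand. Capitals mark TTCAGCACC in Syn1 and Nlgn1, TGACGTCA in Syn1 and ACAATG in Sv2a.
Syn1: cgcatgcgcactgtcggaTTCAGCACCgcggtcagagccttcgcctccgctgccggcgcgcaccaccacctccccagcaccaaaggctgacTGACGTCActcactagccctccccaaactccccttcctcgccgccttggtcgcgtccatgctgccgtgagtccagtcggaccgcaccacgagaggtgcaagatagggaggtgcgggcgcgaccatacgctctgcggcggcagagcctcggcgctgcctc
Nlgn1: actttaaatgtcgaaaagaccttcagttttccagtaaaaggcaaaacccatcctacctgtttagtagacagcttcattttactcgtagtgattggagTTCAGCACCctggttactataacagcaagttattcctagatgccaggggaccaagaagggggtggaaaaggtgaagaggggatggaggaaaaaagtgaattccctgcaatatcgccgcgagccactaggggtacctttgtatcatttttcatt
Sv2a: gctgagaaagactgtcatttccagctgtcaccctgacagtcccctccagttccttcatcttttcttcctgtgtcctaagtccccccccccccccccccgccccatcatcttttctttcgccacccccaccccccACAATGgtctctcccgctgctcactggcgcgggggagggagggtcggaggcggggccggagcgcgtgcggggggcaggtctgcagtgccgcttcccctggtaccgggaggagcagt

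The letters TTCAGCACC, the left part of the RE1 element bound by the neuronal repressor REST, start 232 bases before the Syn1 start site and 153 bases before the internal Nlgn1 start site. They were present in 2 of 39 windows of members (5.13%) and in 122 of 32851 windows of all genes (0.371%). RefSeq windows of 300 bases, which also take in 50 bases after the start site, were at hand for 24 members. On both strands, 13 motifs were searched by exact letters only, so an element with changed letters is not counted. The right part of RE1, GGACAG, was in 20.5% of member windows and 22.2% of all windows, and its longer form GGACAGCG was in none of the 39 and in 1.26% of all. Of letters bound by Sox factors, AACAAT was in none of the 39 windows and 10.7% of all, AACAATG, which contains it, in none and 3.78%, and ACAATG, which overlaps both, in 3 windows (7.69%, Sv2a, Sv2b and Dlg2) and 12.6%. The cAMP response element TGACGTCA was in Syn1 alone among members (2.56% and 1.79% of all), and TGACG, contained in it, in 20.5% and 20.8%. The E-box letters CAGCTG were in 25.6% and 16.3%, and CAGATG in 10.3% and 17.2%. TATTTATA was in 2.56% and 1.70%, AAGATGGC in none and 2.75%, and TATAAA in 7.69% and 13.6%. A match describes the letters of these windows only. The windows shown were chosen by difference and by match together, so a link of match with difference was not tested.

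Most synaptic genes differed little between the libraries, and more of them lay above than below the array-wide centre. Of the 30 measured members, 3 were at least 1.5-fold higher in the null library (Syn1, Nlgn1 and Camk2a), against a background of 3.07% of 12390 measured genes. Only Nrxn3 was at least 1.5-fold lower, against a background of 3.24%. The other 26 were within 1.5-fold. The median difference was 0.15, with 22 members above 0 and 8 below, beside a median of 0 and 50% above 0 over all measured genes. Differences ran from -0.75 to 0.68. Of the 30, Syn1 and Nrxn3 lay outside the range that holds the central 95% of measured genes of a similar level (-0.49 to 0.57 for both).

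**Figure D1:**
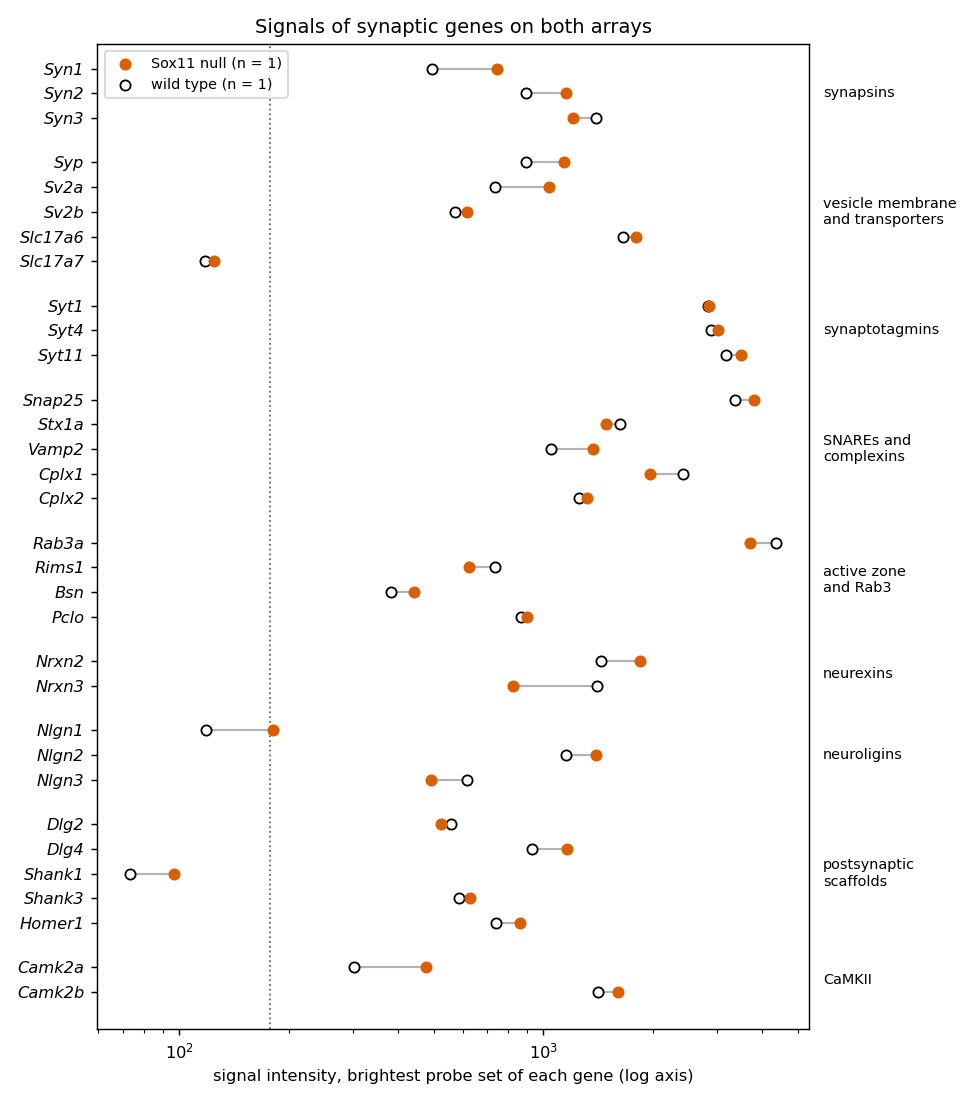
Signal intensity of the brightest probe set of 32 synaptic genes in the Sox11-null (filled) and wild-type (open) library, on a log axis, with genes grouped by role and the dotted line at the wild-type array median. Syn1, Sv2a, Nlgn1 and Camk2a show the null point well to the right of the wild-type point, and Nrxn3 shows it well to the left.

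Among the synapsins, phosphoproteins that tether vesicles to each other and to actin, Syn1 and Syn2 were higher in the null library and Syn3 was not. Syn1 had a signal of 747 in the null library and 496 in wild type with its only probe set, a 1.53-fold difference (log2 difference 0.61) that was just within 1.5-fold, at 0.58, with quantile normalization or a loess trend removed. Syn2 had 1155 and 898 with its brightest probe set (0.38). All 4 measured Syn2 probe sets were above 0, from 0.12 to 1.28, so the direction was shared and the size was not, and their mean of 0.60 was beyond 1.5-fold. Syn3, a synapsin expressed early in neuronal development, had 1209 and 1396 (-0.19), and its second measured probe set gave -0.32. Its dimmest probe set, below the median in both libraries, went the other way with 129 in the null library and a wild-type value under the floor (28.2). The synapsin median was 0.38 over 3 genes.

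The vesicle membrane proteins lay above 0 throughout. Synaptophysin (Syp), an abundant vesicle membrane protein, had 1138 in the null library and 899 in wild type (0.36). The vesicle glycoprotein gene Sv2a had 1038 and 736, a 1.43-fold difference (0.52), the largest within-1.5-fold value of the set. Sv2b, its close relative, had 618 and 571 (0.13), with 0.24 by its other probe set. These 3 genes and Slc17a6 gave a median of 0.25. Slc17a6 encodes VGLUT2, the glutamate transporter of subcortical and immature neurons, and had 1802 and 1651 (0.15). Its second probe set, at 718 and 376, gave 0.95, so the 2 probe sets share the sign but not the size. Slc17a7, which encodes VGLUT1, the main transporter of mature cortical excitatory neurons, had a difference of 0.097 below the median signal.

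Synaptotagmins, the calcium sensors and related proteins of the vesicle membrane, were close to 0 on their brightest probe sets. Syt1, the sensor for fast release, had 2856 in the null library and 2833 in wild type (0.031). Its other measured probe sets gave 0.38 and -0.87, the last at 99.7 in the null library and 184 in wild type. Syt4, induced by neuronal activity, had 3027 and 2890 (0.087), and -0.27 by its other probe set. The 5 probe sets of Syt11, a synaptotagmin that does not bind calcium, ran from -0.25 to 0.77, with the brightest at 3502 and 3179 (0.16). No synaptotagmin therefore had measured probe sets of a single sign, and the group median of 0.087 turned to -0.094 with the probe sets of a gene averaged, whether all or the measured ones.

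The SNARE proteins and complexins showed 1 gene with matching probe sets and 4 without. Vamp2, the vesicle SNARE synaptobrevin 2, had 1365 in the null library and 1053 in wild type (0.39), and its second probe set had 397 and 298 (0.44). These 2 values differ by 0.042, the mean of the other minus the brightest. Snap25, a SNARE of the plasma membrane, had 3785 and 3357 (0.19), and -0.27 by the other probe set. Stx1a, its syntaxin partner, had 1484 and 1624 (-0.11) by an _x_at probe set, a type that can also bind related transcripts, but 757 and 495 (0.63) by the other. The brightest probe sets of Rab3a and Syt11 are of that type too, and those of Syn3 and Cplx2 are of the related _s_at type. Complexins clamp and then promote fusion of the assembled SNARE complex. Cplx1 had 1965 and 2413 (-0.28) but 0.16 and 0.29 by its dimmer probe sets, and Cplx2 had 1316 and 1253 (0.091), with -0.079 and 0.46 by the others.

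At the active zone, the release site of the presynaptic membrane, no gene reached 1.5-fold. Rab3a, the vesicle GTPase that binds RIM proteins, had 3708 in the null library and 4370 in wild type (-0.22), with -0.020 by its second probe set. The RIM gene Rims1 had 625 and 738 (-0.22) but 477 and 336 (0.53) by its other probe set. The giant scaffold genes Bsn (bassoon) and Pclo (piccolo) had 442 and 383 (0.23) and 902 and 870 (0.072), and the 3 probe sets of Pclo ran from -0.29 to 0.25. The median of these 4 genes was -0.073, and its sign turned in 4 of 11 other settings, with a range of -0.21 to 0.081.

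The neurexins, presynaptic adhesion receptors, pointed in opposite directions. Nrxn2 had 1839 in the null library and 1441 in wild type (0.37). Nrxn3 had 824 and 1407, a 1.68-fold difference and the largest negative value of the set (-0.75). Only 1 of the 4 measured Nrxn3 probe sets showed that size. The others gave 0.28 (674 and 563), -0.23 (356 and 422) and 0.27 (200.3 and 169), and the mean over all 4 was -0.11, within 1.5-fold. Neurexin genes produce many transcripts from several start sites and by splicing, and the sources used here do not say which of them each probe set detects.

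**Figure D2:**
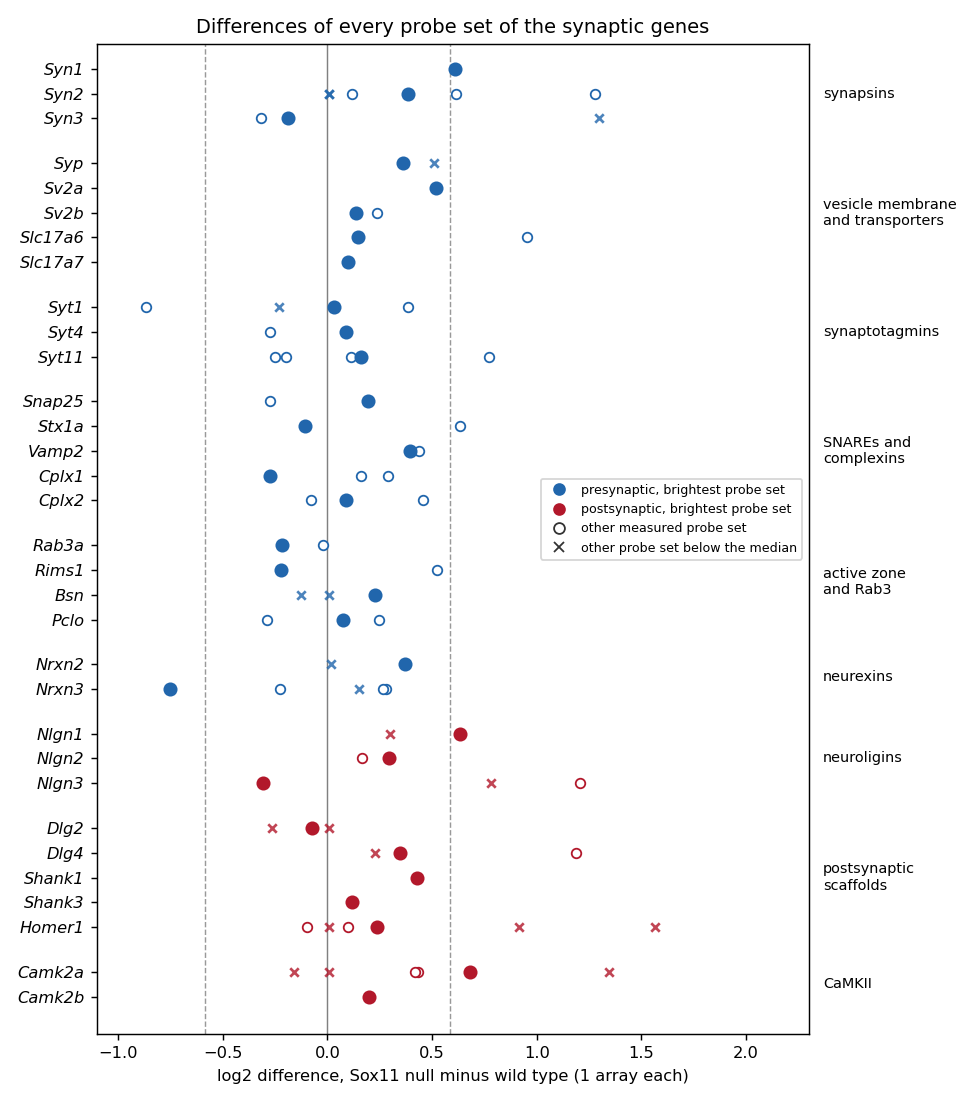
Log2 difference, Sox11 null minus wild type, of all 86 probe sets of 32 synaptic genes, with filled circles for the brightest probe set of a gene, open circles for other measured probe sets, crosses for other probe sets below the array median, blue for presynaptic and red for postsynaptic genes, and dashed lines at 1.5-fold. Signals under the floor are set to it, which puts probe sets under it on both arrays near 0. Camk2a, Vamp2, Syn2 and Dlg4 have all measured probe sets right of 0, and the 4 measured points of Nrxn3 lie on both sides.

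On the postsynaptic side, the neuroligins, receptors for neurexins, differed among themselves. Nlgn1, of excitatory synapses, had 181 in the null library and 119 in wild type, a 1.55-fold difference (0.63) at a signal close to the array median. With values below the median raised to it, the difference was 0.048, and with a loess trend removed it was 0.50. Nlgn2, of inhibitory synapses, had 1395 and 1156 (0.29), and 585 and 529 (0.17) by its other probe set, so both agree in sign. Nlgn3 had 492 and 617 (-0.31) by its brightest probe set but 256 and 113 (1.21) by the second, a gap of 1.51, the widest between measured probe sets of a member.

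Postsynaptic scaffold genes were mostly slightly above 0. Dlg4, which encodes PSD-95, the main scaffold of excitatory synapses, had 1164 in the null library and 929 in wild type (0.35). Its second measured probe set had 416 and 185 (1.19), so both lay above 0, and their mean of 0.77 was beyond 1.5-fold. Dlg2, which encodes PSD-93, had 522 and 558 (-0.076). Shank3, which links the glutamate receptor complex to actin, had 629 and 588 (0.12). Homer1, which couples metabotropic glutamate receptors to Shank, had 861 and 740 (0.24), with 0.10 and -0.098 by its other measured probe sets. Of its dimmer probe sets, 1 had 155 in the null library and a wild-type value under the floor (30.9), and another had 138 and 74.1 (0.92). Homer1 makes long scaffold forms and a short activity-induced form, and the sources used here do not say which form each probe set reads.

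CaMKII, the calcium-dependent kinase of the postsynaptic density that is also present in boutons, had a median of 0.44 over 2 genes, and of 0.20 to 0.55 in the other settings. Camk2a, the alpha subunit, had 477 in the null library and 302 in wild type, a 1.60-fold difference (0.68) and the highest value of the set. Its other measured probe sets had 385 and 290 (0.43) and 272 and 207 (0.42), giving a mean of 0.51 ± 0.15 (SD, 3 probe sets on the same arrays), which is within 1.5-fold. Among the 3 genes beyond 1.5-fold higher, Camk2a was the one whose direction more than 1 measured probe set showed. Of the Camk2a probe sets below the median in both libraries, 1 went the other way with 105 and 118 (-0.16). Another had 150 and 59.8 (1.35), and the last was under the floor in both. Camk2b, the beta subunit, had 1600 and 1415 (0.20) with 1 probe set.

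Set side by side, presynaptic and postsynaptic genes overlapped, and the presynaptic median was slightly lower. The 21 measured presynaptic genes had a median of 0.13 with 15 above 0, and the 9 postsynaptic genes had a median of 0.24 with 7 above 0. The difference of medians, presynaptic minus postsynaptic, was -0.10, with no test, and ranged from -0.30 to -0.063 over the other processing settings. Its reported size was below 0.15, the spread that follows from the pooled SD between probe sets and the numbers of genes. That spread treats genes as independent and does not measure variation between embryos. The SD over genes was 0.31 for presynaptic and 0.31 for postsynaptic members. Single genes ran from -0.75 to 0.61 in presynaptic and from -0.31 to 0.68 in postsynaptic genes. Counted by probe set, 6 of 48 measured presynaptic and 4 of 16 measured postsynaptic probe sets were at least 1.5-fold higher, against a background of 7.26% of 20669 measured probe sets. Of the 48, 2 (1 each of Nrxn3 and Syt1), and none of the 16 were at least 1.5-fold lower, against a background of 3.48%. Probe sets of 1 gene read the same RNA and are not independent.

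**Figure D3:**
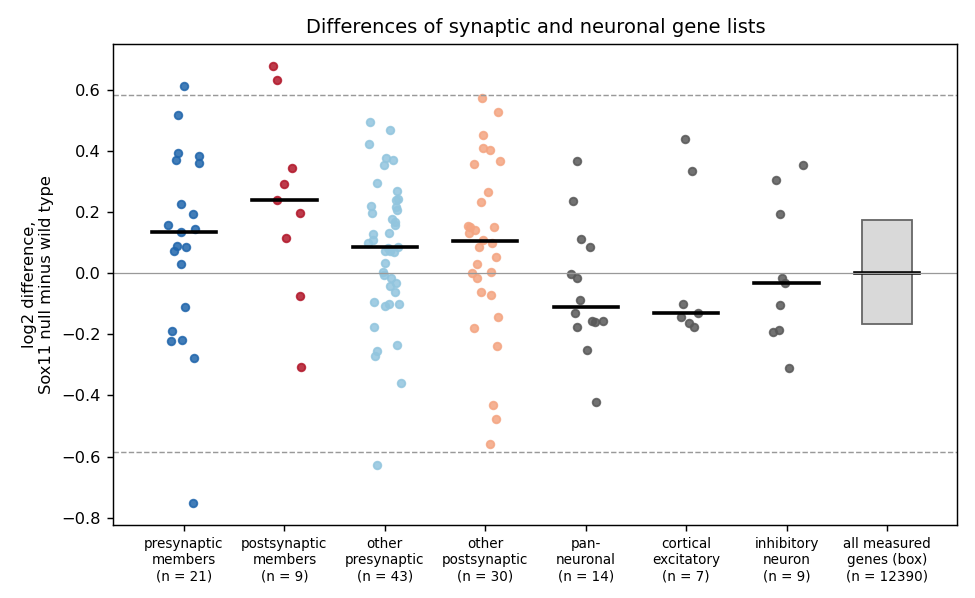
Log2 difference, Sox11 null minus wild type, of the measured genes of synaptic and neuronal lists, each point a gene, with black bars at list medians, a box for the quartiles of all 12390 measured genes and dashed lines at 1.5-fold. Presynaptic and postsynaptic members overlap, and the medians of both lie above those of the pan-neuronal (-0.11) and cortical excitatory (-0.13) lists.

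Other genes of the same machinery showed smaller medians of the same sign. Of 43 measured genes in a list of other presynaptic genes, none was at least 1.5-fold higher and only Synpr, a synaptophysin relative, was lower (722 in the null library and 1132 in wild type, -0.63). Their median was 0.087, with 28 above 0. Of 30 measured other postsynaptic genes none was beyond 1.5-fold in either direction, the median was 0.10 and 21 lay above 0. The adhesion gene Lrrc4b came nearest, with 599 and 408 (0.58), followed on the negative side by Ppp1r9a, an actin-binding scaffold of spines, with 2324 and 3471 (-0.56). Other measured probe sets of Ppp1r9a gave -0.23 and -0.26. Dnm1, the GTPase of vesicle retrieval, had 2123 and 1606 (0.42), and 0.72 by its other probe set. The active zone gene Erc1 had 763 and 549 (0.49). Its other measured probe sets gave -0.38, 0.27 and 1.93, so its sign was mixed. Between these lists the order of the medians turned in several other settings, with the presynaptic one the higher. The presynaptic and postsynaptic medians were 0.096 and 0.090 with quantile normalization and 0.097 and 0.088 with a loess trend removed. They were 0.091 and 0.056 with a filter at the 75th percentile, and 0.14 and 0.022 with all probe sets averaged.

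General neuronal genes did not share the sign of the synaptic lists. Of 14 pan-neuronal genes, 4 were above 0. Among those below was the growth cone gene Gap43 (7600 in the null library and 8440 in wild type, -0.13). The list median was -0.11, which is 0.26 below that of the synaptic members. Pan-neuronal signals were high, from Rbfox3 (1295 and 1466) to Stmn2 (10249 and 11577), above those of many members. The part of signal level in the gap between the lists was not tested. Of the 30 members, 24 lay above that pan-neuronal median, as did 67.4% of all measured genes. Cortical excitatory markers had a median of -0.13 (Neurod6 2723 and 3019, Tbr1 483 and 554), with only Slc17a7 below the array median in both libraries. Bcl11b, Neurod2 and Nrgn were below 0 as well. Fezf2 (217 and 162, 0.44) and Emx1 (272 and 219, 0.33) were above 0 and had the largest differences of that list. Slc17a6, Slc17a7, Slc32a1, Nrgn, Snap91 and Pou4f1 each stand in more than 1 list. The medians were -0.030 for 9 inhibitory and -0.012 for 6 subcortical excitatory neuron genes. In tissue RNA, fewer cells of a type and less RNA per cell cannot be told apart.

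The libraries held signals of other tissues and differed in other ways that move with genotype. All 6 Sox11 probe sets were lower in the null library, at 16.4% to 47.8% of wild type. Summed skeletal muscle markers were at 122701 in the null library and 121719 in wild type (10 genes, none below the median, median 0.12). Summed epidermal markers were at 24814 and 46053 (6 of 8 at least 1.5-fold lower, median -0.92). Of cells that can also express the synaptic release machinery, pituitary endocrine markers summed to 3238 and 6601. All 4 measured ones were below 0, and 3 of them were at least 1.5-fold lower. Lhx3 was below the median and Prl under the floor in both libraries. Peripheral neuron markers summed to 1850 and 2237 (median -0.34, with Scn10a, Th and Tlx3 below the median). Retina markers summed to 872 and 968 (median -0.19, Rcvrn and Pde6b under the floor). Medians of the other lists were 0.077 for astrocytes and radial glia, -0.19 for the oligodendrocyte lineage, 0.011 for microglia and 0.60 for endothelium. Their part in the synaptic differences was not tested. Xist had 155 in the null and 17505 in the wild-type library, and the Y-linked Uty 617 and 21.8, so embryo sex and genotype cannot be told apart. The 3 X-linked members Syn1, Syp and Nlgn3 had differences of 0.61, 0.36 and -0.31, and the 27 other measured members a median of 0.15. The 406 measured X-linked genes had a median of -0.0012.

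Agreement between probe sets set the limit of what single values show. Of 21 members with several measured probe sets, 7 had all of them above 0 (Syn2, Sv2b, Slc17a6, Vamp2, Nlgn2, Dlg4 and Camk2a), 2 had all below 0 (Syn3 and Rab3a) and 12 were mixed. The share with a single sign was 42.9%, beside 43.2% of 5155 genes on the whole arrays. The pooled SD between probe sets of 1 gene was 0.42 in members and 0.39 over all such genes, larger than most of the differences above. In 12 of the 21 members the other probe sets lay, on average, above the brightest, beside 62.3% of all such genes, with median gaps of 0.099 and 0.12. Of the array's RNA integrity controls, beta-actin had a 3′ to 5′ signal ratio of 1.16 in the null and 1.78 in the wild-type library, and Gapdh one of 0.816 and 0.922. The part of RNA integrity in these gaps was not tested.

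**Figure D4:**
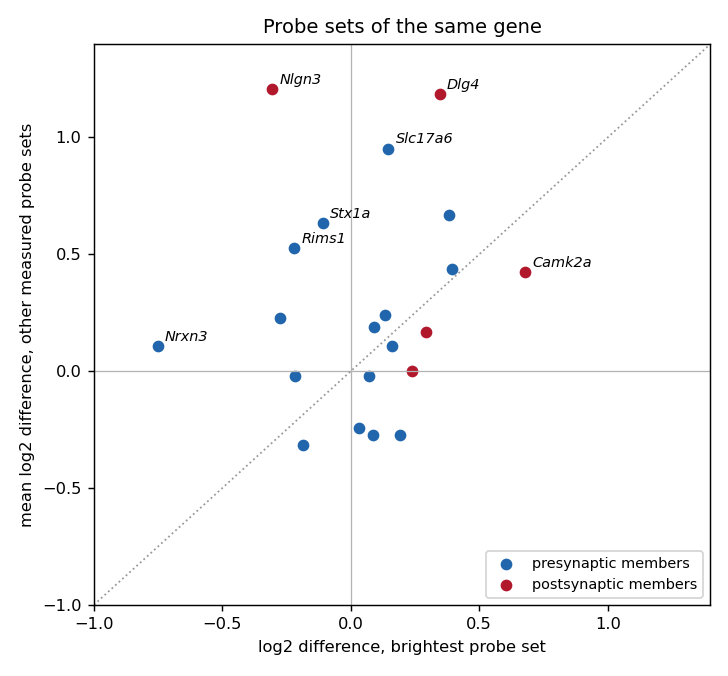
Log2 difference, Sox11 null minus wild type, of the brightest probe set (horizontal axis) and mean of the other measured probe sets (vertical axis) for 21 synaptic genes, with a dotted line of equality and names for genes with a gap over 0.6 and for Camk2a. Nlgn3, Dlg4, Slc17a6, Stx1a, Rims1 and Nrxn3 lie far above the line.

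**Figure D5:**
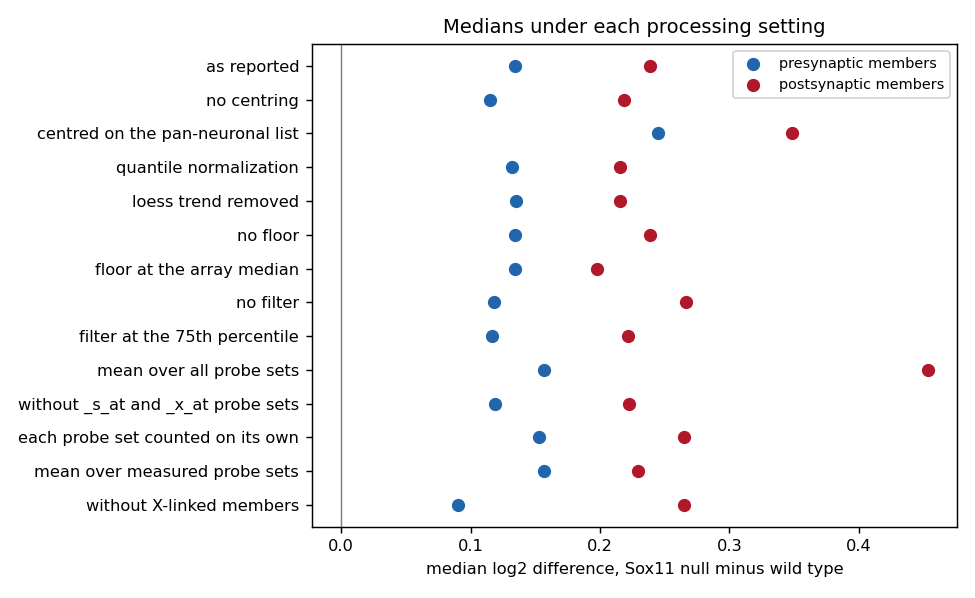
Median log2 difference, Sox11 null minus wild type, of measured presynaptic (blue) and postsynaptic (red) members as reported and under 13 other processing settings. In each of them both medians are above 0 and the postsynaptic one is to the right, with presynaptic medians between 0.091 and 0.24 and postsynaptic medians between 0.20 and 0.45.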

How the data were processed

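RNA of 1 Sox11-/- and 1 Sox11+/+ embryo was measured on 1 Affymetrix array each. The authors deposited 1 linear signal intensity per probe set and array. Affymetrix Expression Console made them, per the submitters' processing notes, and their summary algorithm was not given in the sources used here. Both arrays had a mean of 500 after trimming 2% at each end. Control probe sets (64 of 45101) were left out. Of the rest, 34945 name 1 gene, 932 several and 9160 none here, and 34741 symbols were brought up to date through gene IDs in a RefSeq table (GRCm38.p6). Signals were taken to log2, the null array was shifted by the median difference of measured genes (-0.020), and values below the 25th percentile (52.5 in the null and 52.9 in the wild-type array) were raised to it. Python 3.11.15, numpy 2.4.6 and pandas 2.3.3 were used, and the steps were tested on simulated data. With 1 array per genotype no test or p-value was possible, and the number of arrays limits the precision. Members and lists were chosen with earlier results of these data known. All 33 members are named, with genes of the other synaptic lists beyond 1.5-fold. Gap43, Lrrc4b, Ppp1r9a, Dnm1 and Erc1 were chosen after their values were seen. Alternatives covered centring, normalization, floor, filter and the choice of probe sets. Those leaving out X-linked members and averaging measured probe sets were chosen after seeing the data.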

Additional observations from a re-analysis of the deposited data

How the results depend on the processing

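In all 13 alternatives the medians of presynaptic and of postsynaptic members stayed above 0, and the presynaptic minus postsynaptic difference ran from -0.30 to -0.063. A median is given where it moved by more than the pooled SD between probe sets divided by the square root of its number of genes. This bound does not measure variation between embryos. Centring on the pan-neuronal list raised the medians to 0.26 for all members, 0.24 for presynaptic members, 0.20 for other presynaptic and 0.21 for other postsynaptic genes. The count of members at least 1.5-fold higher was 3 as reported and 1 with the loess trend removed (Camk2a). With a filter at the 75th percentile it was 1 as well (Syn1). Smaller shifts gave 2 with quantile normalization, a floor at the array median or all probe sets averaged. Counts of 4 came with centring on the pan-neuronal list or without _s_at and _x_at probe sets. The count of members lower, 1 as reported, was 0 with all probe sets or all measured probe sets averaged. With each probe set counted on its own, the unit is no longer a gene. Of 64 measured probe sets, 10 were at least 1.5-fold higher and 2 lower, against backgrounds of 7.26% and 3.48% of measured probe sets. With all probe sets averaged, the postsynaptic median was 0.45, the presynaptic minus postsynaptic difference -0.30, the vesicle membrane group 0.48 and other postsynaptic genes 0.022. With measured probe sets averaged, the neurexin median was 0.13 and that of other presynaptic genes 0.17. For neuroligins the median came to 0.048 when the floor was set to the array median, and to -0.0041 when a filter at the 75th percentile dropped Nlgn1. Syn1 was at 0.58, just within 1.5-fold, with quantile normalization or the loess trend removed, and Nrxn3 at -0.056 with all probe sets averaged. No paired analysis was possible because each genotype has 1 array, and for the same reason no array could be left out. Low signals limit Nlgn1, Shank1 and Slc17a7 most.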
